A study of Mus musculus with 2 samples.

Results

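The integrin genes of the mouse and the cytoplasmic proteins that switch integrins on were followed in cells labelled megakaryocyte progenitor. The set held 40 genes chosen by name, namely 18 alpha chains, 8 beta chains and 14 adaptors and activators, of 43346 Ensembl genes in the tables, and all 40 were found. Total RNA was sequenced in 2 libraries, replicates 1 and 2, which form the single group of the study, so that no condition was compared. Per the labels, the cells were primary CFU-Meg, the colony-forming progenitors of megakaryocytes, from C57BL/6J males aged 5 to 6 weeks, with no allele or agent named, and each library was made from 1 ng of RNA. The replicates were separate biosamples with 1 donor identifier in common, and their spread may therefore not be that between animals. The sorting gate stands in protocol documents not used here.

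Integrins are surface receptors built from an alpha and a beta chain that bind matrix proteins or counter-receptors on other cells and tie them to the actin cytoskeleton. They rest in a bent, inactive form until the GTPase Rap1 and its effector RIAM bring talin to the tail of the beta chain, where a kindlin binds beside it and together they switch the receptor to its extended form. In blood cells, αLβ2 and αMβ2 serve leukocyte adhesion, α4β1 holds progenitors in the marrow, and αIIbβ3, whose alpha chain is the antigen CD41, is the fibrinogen receptor of platelets and a marker of the megakaryocyte lineage.

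The libraries held 82746658 and 75652762 expected counts in replicates 1 and 2, of which 49.6% and 50.1% lay outside mitochondrial, small RNA and spike-in rows and the ribosomal-repeat gene Gm42418. Levels are given as TPM, the share of a gene among all transcripts after correction for length, as a value per replicate and a mean ± SD over 2 libraries. For the median gene of the set at a mean of 1 TPM or more, 1 TPM stood for 193 reads in replicate 1 and 182 reads in replicate 2. The defining genes of the labelled lineage were low. Of 13 megakaryocyte and platelet genes outside the set, 2 (Vwf and Selp) reached 1 TPM in both libraries, Gp6 and Tubb1 were at 0 in both, and the summed level was 11.9 TPM in replicate 1 and 5.64 TPM in replicate 2. All 10 granulocyte genes reached 1 TPM in both, with sums of 16206 and 17108 TPM, as did 7 of 8 monocyte and macrophage genes, 6 of 8 erythroid genes and 6 of 6 mast cell and basophil genes. Of the B cell list 1 of 6 did so (Cd79b), of the T and NK cell list 0 of 6, and of the stroma and endothelium list 1 of 8 (Pecam1), with Cdh5 at 0. Granulocyte genes thus stood far above megakaryocyte genes, against the label, which is kept here only as a label. In such bulk RNA, fewer cells of a type and less RNA per cell cannot be told apart, and the part of each cell type in the level of an integrin gene was not tested.

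The set was chosen with earlier results of these data known. Of the 40 genes, 21 (52.5%) reached 1 TPM in both libraries, beside 46.2% of protein-coding genes and 25.6% of all Ensembl genes. A further 18 stayed under 1 TPM in both and 1, Itgb5, crossed that line in replicate 2 only. The set had a median of 2.08 TPM (replicate 1 alone 2.19, replicate 2 alone 2.15), against a median of 0.585 TPM over protein-coding genes. A mean of 10 TPM or more was held by 15 genes (37.5%), beside 25.2% of protein-coding genes. The classes differed in level. The adaptors had a median of 34.5 TPM with 10 of 14 at 1 TPM in both libraries, the beta chains 1.20 TPM with 3 of 8, and the alpha chains 0.32 TPM with 8 of 18. At the lower end, Itgb8, Fermt1, Fermt2 and Parva drew no reads in either library. A count of 0 allows up to 3 reads, which on the longest annotated transcript would be 0.0058 TPM in replicate 1 and 0.0063 TPM in replicate 2 for Itgb8, and 0.015 and 0.016 TPM for Fermt2, for counting error only. Reads on shorter transcripts would weigh more: the upper bounds of the authors' deposited intervals were 0.0309 and 0.0331 TPM for Itgb8 and 0.244 and 0.262 TPM for Fermt2 in replicates 1 and 2.

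**Figure D1:**
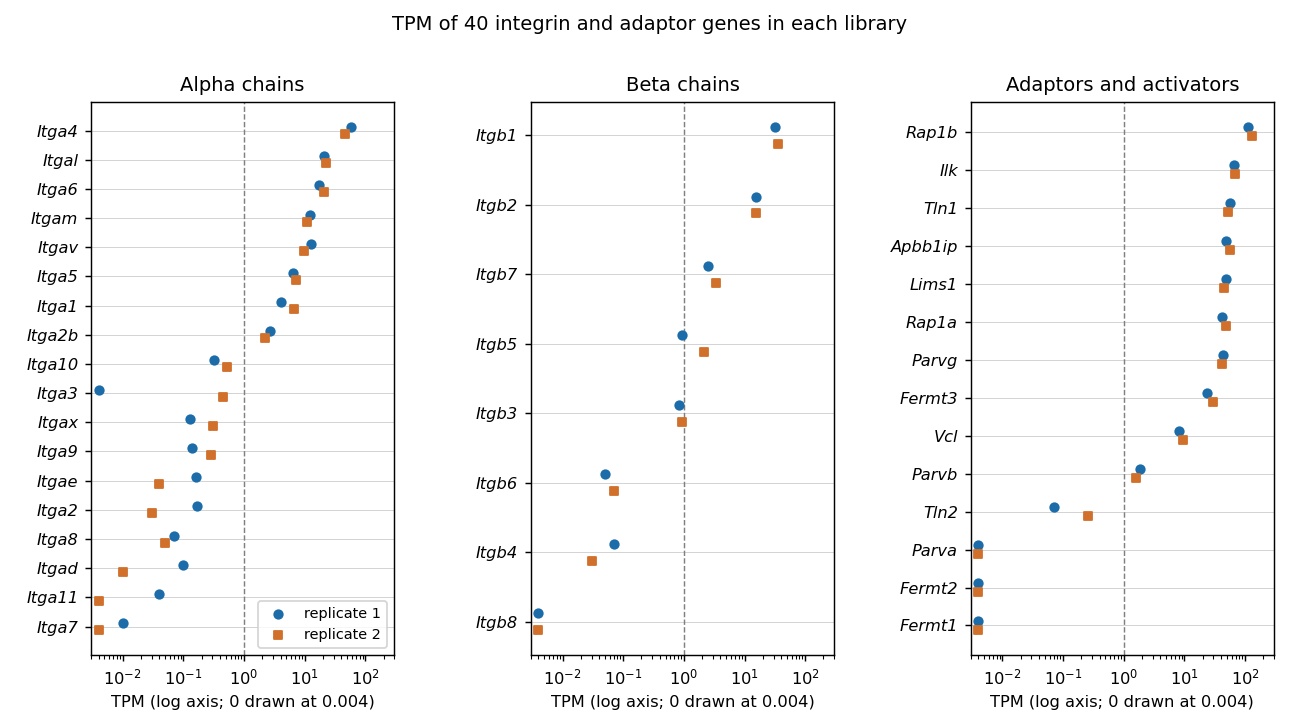
TPM of each of the 40 genes in replicate 1 (circles) and replicate 2 (squares), on a log axis, in 3 panels by class and sorted by mean; a TPM of 0 is drawn at 0.004 and the dashed line marks 1 TPM. Each class runs from a few genes above 10 TPM to genes at or near 0, and the libraries lie close together above about 10 TPM.

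Among the alpha chains, Itga4 was the highest. It encodes the α4 chain, which binds VCAM-1 and fibronectin (chr2:79255426-79333123, plus strand, build mm10/GRCm38). Itga4 had 57.4 TPM in replicate 1 and 46.3 TPM in replicate 2 (51.9 ± 7.8), from 30869 and 24105 reads, and held 39.5 ± 4.6% of the TPM of all alpha chains. The lower Itga4 library lay above the higher library of every other alpha chain. Itgal, the αL chain of the leukocyte receptor for ICAMs (chr7:127296260-127335138, plus strand), had 20.7 TPM in replicate 1 and 22.2 TPM in replicate 2. Itga6, the α6 chain of a laminin receptor (chr2:71745616-71858416, plus strand), had 17.2 and 21.1 TPM in replicates 1 and 2, so that the ranges of Itgal and Itga6 overlapped.

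Itgam encodes the αM chain, the antigen CD11b of granulocytes and macrophages (chr7:128062640-128118491, plus strand), and stood at 12.2 and 10.7 TPM in replicates 1 and 2 (11.4 ± 1.0). The αv chain gene Itgav (chr2:83724397-83806916, plus strand), which pairs with 5 beta chains and binds RGD-containing ligands, had 12.6 and 9.71 TPM in replicates 1 and 2. Its deposited values enclosed those of Itgam, so no order between the pair can be read on that scale. With reads divided by the length of the longest annotated transcript, Itgav had 5.77 and 4.70 TPM and Itgam 9.37 and 9.56 TPM, and Itgav then lay below both Itgam and Itga5. Itga5, the α5 chain of the fibronectin receptor, had 6.41 and 7.20 TPM. Itga1, the α1 chain of a collagen receptor, had 4.04 TPM in replicate 1 and 6.75 TPM in replicate 2, from 1466 and 2276 reads, a range that overlapped that of Itga5. The other 10 alpha chains below Itga2b had means of 0.005 to 0.42 TPM, each step in their order overlapping the next. They were the collagen, laminin and tenascin receptor chains Itga2, Itga3, Itga7, Itga8, Itga9, Itga10 and Itga11, the leukocyte chains Itgad and Itgax (CD11c), and Itgae, the E-cadherin-binding chain.

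The upstream region of Itgam is shown because its gene marks granulocytes and macrophages and lay above 10 TPM, and that of Itga2b because its gene marks the labelled lineage and lay lower. Each is the 250 bases before the start that RefSeq gives on GRCm38.p6, 5′ to 3′ in the direction of the gene. For Itga2b that is the start of Itga2b-201, and the whole annotated gene, with its processed transcripts, reaches further upstream and covers most of the bases shown. Itgam lies at chr7:128062390-128062639 on the plus strand and Itga2b at chr11:102469884-102470133 on the minus strand. Capitals mark GAGGAA or its reverse complement TTCCTC, the letters of the purine-rich box bound by PU.1 and related ETS factors.
Itgam upstream: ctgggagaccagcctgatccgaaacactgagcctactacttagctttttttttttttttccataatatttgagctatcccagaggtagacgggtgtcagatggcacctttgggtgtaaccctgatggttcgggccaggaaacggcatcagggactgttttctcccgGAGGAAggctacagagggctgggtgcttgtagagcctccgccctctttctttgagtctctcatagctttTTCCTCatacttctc
Itga2b upstream: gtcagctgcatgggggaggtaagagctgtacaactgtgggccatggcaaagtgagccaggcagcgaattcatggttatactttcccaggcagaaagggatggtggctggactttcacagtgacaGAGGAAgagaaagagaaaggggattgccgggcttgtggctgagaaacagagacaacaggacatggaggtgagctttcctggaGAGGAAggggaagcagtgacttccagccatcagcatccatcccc
Each of these windows held 2 such matches and neither held GATAA or its reverse complement TTATC, the core GATA followed by A. The bare core GATA or TATC was not counted in any window, and the Itgam window does hold TATC. Over 32851 windows of the same length, 23.3% held GAGGAA or TTCCTC and 22.6% held GATAA or TTATC. Over the 35 windows found for 29 genes of the set the counts were 11 and 3. A match describes letters only, and the absence of one says nothing of the factor.

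Itga2b, the αIIb or CD41 chain (chr11:102453297-102470122, minus strand), was at 2.63 TPM in replicate 1 and 2.18 TPM in replicate 2 (2.41 ± 0.32), from 219 and 180 reads. It was the eighth of the alpha chains by mean, apart from Itga1 above it and from Itga10 below it, and at the 58.1 percentile of protein-coding genes. Most of this TPM came from short processed transcripts: the protein-coding transcript Itga2b-201 held 58.9% and 73.4% of the reads but 23.9% and 31.9% of the TPM in replicates 1 and 2. When the reads were divided by the length of the longest annotated transcript instead, Itga2b came to a mean of 1.01 TPM, which is 41.9% of the deposited value. Its partner Itgb3, the β3 or CD61 chain (chr11:104608000-104670476, plus strand), had 0.83 TPM in replicate 1 and 0.93 TPM in replicate 2 from 292 and 302 reads, and so stayed under 1 TPM in both. Beside these, the summed megakaryocyte and platelet genes had 11.9 TPM in replicate 1 and 5.64 TPM in replicate 2, whereas the log2 ratios of Itga2b and Itgb3 (replicate 1 over replicate 2) were 0.26 and -0.15.

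Among the beta chains, Itgb1 was the highest. It encodes β1, the common partner of matrix-binding alpha chains (chr8:128685654-128733200, plus strand), and had 32.1 TPM in replicate 1 and 35.0 TPM in replicate 2, or 61.6 ± 0.6% of all beta chain TPM. Itgb2, the β2 or CD18 chain of leukocyte integrins (chr10:77530252-77565708, plus strand), followed with 15.3 and 15.7 TPM and a share of 28.5 ± 1.5%. Neither range overlapped another beta chain. Itgb7, the β7 chain that pairs with α4 and αE, had 2.48 TPM in replicate 1 and 3.35 TPM in replicate 2. Itgb5, the β5 partner of αv, had 0.92 and 2.12 TPM in replicates 1 and 2, and its range lay apart from that of Itgb7 and overlapped that of Itgb3. Itgb6 and Itgb4, chains best known from epithelia, had means of 0.06 and 0.05 TPM.

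Levels of RNA were set side by side for the 24 known alpha and beta pairings. Both chains reached 1 TPM in both libraries for 8 of them. Itgb1 had 5 of its 12 partners at that level (Itga1, Itga4, Itga5, Itga6 and Itgav), Itgb2 had 2 of 4 (Itgal and Itgam), Itgb7 had 1 of 2 (Itga4) and Itgb3 had 0 of 2. The alpha chains that can pair with β1 summed to 98.4 and 92.5 TPM in replicates 1 and 2, which is 2.86 ± 0.30 times the level of Itgb1. Those that can pair with β2 summed to 33.1 and 33.3 TPM, which is 2.14 ± 0.03 times the level of Itgb2. Some alpha chains pair with several beta chains, and RNA levels are not amounts of assembled receptor. For αIIbβ3 the lower chain was Itgb3 at 0.88 ± 0.07 TPM, and for α4β1 it was Itgb1 at 33.5 ± 2.0 TPM.

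**Figure D2:**
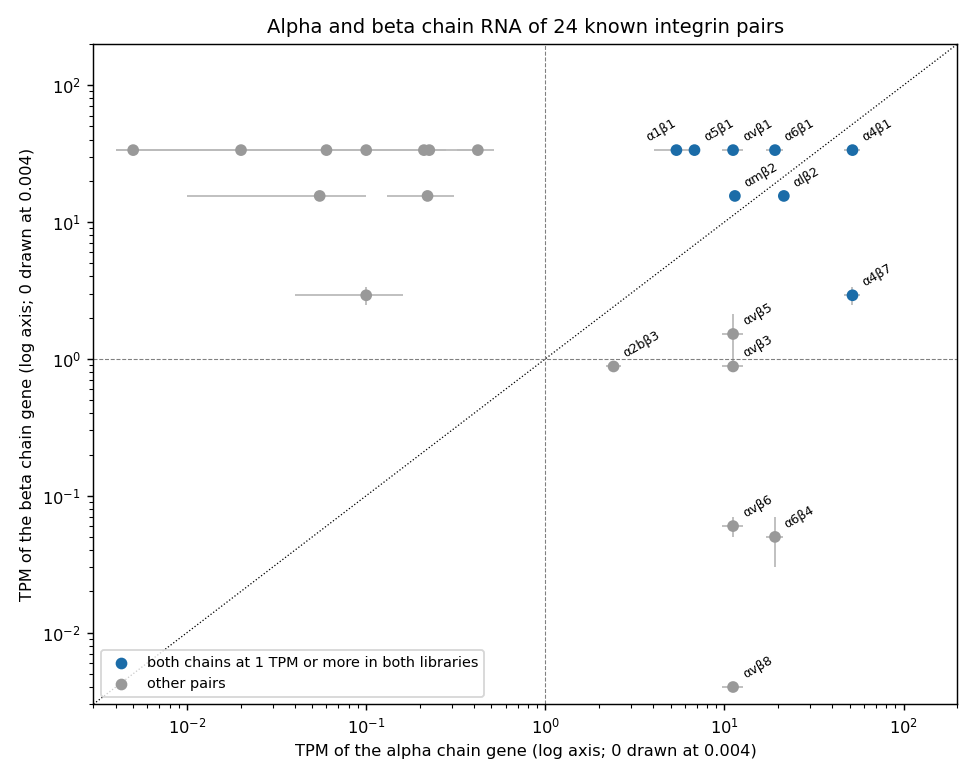
Mean TPM of the alpha chain gene (x axis) against that of the beta chain gene (y axis) for 24 known pairings, both on log axes with 0 drawn at 0.004; lines through the points span the 2 libraries, dashed lines mark 1 TPM and the dotted line marks equal levels. The 8 pairings with both chains at 1 TPM or more in both libraries are in blue at the upper right, and the αIIbβ3 point lies just under the line at 1 TPM for its beta chain.

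The activators were led by Rap1b, the main Rap1 GTPase of platelets and leukocytes (chr10:117813871-117846035, minus strand). Rap1b had the highest level of the set, with 114 TPM in replicate 1 and 131 TPM in replicate 2 (122 ± 12). Its near relative Rap1a had 42.5 and 48.4 TPM. The shares of the pair were alike in the libraries, with Rap1b at 72.9 ± 0.1% and Rap1a at 27.1 ± 0.1% of their sum. Apbb1ip, which encodes the Rap1 effector RIAM that recruits talin, had 49.2 TPM in replicate 1 and 56.4 TPM in replicate 2. Tln1, the talin of blood cells (chr4:43531519-43562691, minus strand), had 56.7 and 51.5 TPM, a range that overlapped that of Apbb1ip. Its relative Tln2 had 0.07 TPM in replicate 1 and 0.26 TPM in replicate 2, so that Tln1 held 99.7 ± 0.3% of talin TPM.

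Of the kindlins, Fermt3, the blood cell form lost in human leukocyte adhesion deficiency type III (chr19:6998958-7019469, minus strand), had 23.2 TPM in replicate 1 and 29.8 TPM in replicate 2. Fermt1, the epithelial form, and Fermt2, the widely expressed form, had no reads, so Fermt3 held 100% of kindlin TPM in both libraries. The authors' posterior mean spreads a little TPM over genes without reads, and by it the share of Fermt3 was 99.0%.

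The complex of integrin-linked kinase, PINCH and parvin links beta chain tails to actin, and each of its parts had a gene above 40 deposited TPM in both libraries. Ilk, the pseudokinase at its centre (chr7:105736592-105742925, plus strand), had 66.9 and 67.6 TPM in replicates 1 and 2. Divided by the longest annotated transcript, the Ilk reads gave 37.2 and 35.3 TPM. Lims1, which encodes the adaptor PINCH1 (chr10:58323466-58424691, plus strand), had 47.7 and 44.5 TPM. Parvg, the parvin of haematopoietic cells (chr15:84324026-84342978, plus strand), had 43.7 TPM in replicate 1 and 41.3 TPM in replicate 2. By the longest annotated transcript Parvg had 39.9 and 40.7 TPM. Its neighbour on the chromosome, Parvb, had 1.76 ± 0.19 TPM and Parva had no reads, which left Parvg with 96.0 ± 0.3% of parvin TPM. Vcl, vinculin, which strengthens the bond between talin and actin, had 8.25 and 9.55 TPM, and its range lay apart from those of Fermt3 above it and Parvb below it. For Ilk, 76.8% of the annotated exonic bases are also exonic in Taf10 and 12.9% in Rrp8, both on the opposite strand, and for Vcl 25.5% are shared with Ap3m1 on the opposite strand. How the counting treated strand is not known here, so the levels of Ilk and Vcl may hold reads of these neighbours. For Itgam, 68.7% are shared with the same-strand gene Gm49368, whose transcripts the files count within Itgam. Gm49368-201 held 0 reads in replicate 1 and 7.59 reads in replicate 2, which was 0.30% of the Itgam reads of that library. Most Itgam reads, 78.9% in replicate 1 and 71.3% in replicate 2, were on ENSMUST00000126475. That transcript has no name in the annotation used for symbols, so its place between Itgam and Gm49368 is not known here. In all, 13 genes of the set have an exonic overlap with another gene, and 10, Rap1a among them, had an expected count that was not whole (tolerance 0.01), so that some of their reads were divided with other features.

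The transcript tables gave a further readout of the same genes. Of the 15 genes at 10 TPM or more, 12 have several annotated transcripts, and in 3 of them the share of the leading transcript differed between the libraries by 10 points or more, beside 22.9% of 4250 such genes overall. The leading transcript itself differed in 1 of 12, Parvg, beside 10.4% overall. Parvg-201 held 67.3% of the gene's TPM in replicate 1 and 29.8% in replicate 2, from 4537 and 1761 reads. Parvg-207 held 25.4% in replicate 1 and 69.8% in replicate 2, from 1769 and 4255 reads. For Parvg-201 the deposited credibility interval in replicate 1 was 24.6 to 32.3 TPM, whereas in replicate 2 it was 9.04 to 15.1 TPM. For Parvg-207 it was 7.76 to 15.1 TPM in replicate 1, against 25.2 to 31.3 TPM in replicate 2. Neither transcript's intervals overlapped between the libraries, while the sum for the gene was nearly the same. Each interval describes the estimate within 1 library and does not measure the spread between libraries.

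The starts of the Parvg transcripts lie 1399 bases apart, and the 250 bases before each are shown because the shares of these transcripts were exchanged between the libraries. They are from RefSeq on GRCm38.p6, plus strand, at chr15:84324470-84324719 for Parvg-201 and chr15:84325869-84326118 for Parvg-207, with capitals as above.
Parvg-201 upstream: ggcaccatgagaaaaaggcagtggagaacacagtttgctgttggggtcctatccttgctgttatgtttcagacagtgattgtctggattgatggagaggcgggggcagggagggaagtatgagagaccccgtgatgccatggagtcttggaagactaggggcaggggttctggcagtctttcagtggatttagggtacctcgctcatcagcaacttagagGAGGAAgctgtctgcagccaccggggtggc
Parvg-207 upstream: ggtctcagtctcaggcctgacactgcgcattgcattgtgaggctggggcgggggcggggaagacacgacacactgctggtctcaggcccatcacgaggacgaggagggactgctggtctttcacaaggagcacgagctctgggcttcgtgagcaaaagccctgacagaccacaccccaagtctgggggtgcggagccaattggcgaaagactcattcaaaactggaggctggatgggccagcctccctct
The window before Parvg-201 held 1 GAGGAA and the window before Parvg-207 held 0. Neither held GATAA or TTATC. Of the 32851 windows, 23.3% held GAGGAA or TTCCTC, and any bearing of these letters on the transcript shares was not tested.

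Itgb2 also divided its reads differently. The transcript Itgb2-204, annotated as a target of nonsense-mediated decay, held 75.9% of the gene's TPM in replicate 1 and 58.7% in replicate 2, and the protein-coding Itgb2-201 held 20.1% and 40.9%. For Itgb2-204 the interval was 10.3 to 12.1 TPM in replicate 1, against 7.76 to 9.92 TPM in replicate 2. For Itgb2-201 it was 2.45 to 3.74 TPM in replicate 1, against 5.49 to 7.36 TPM in replicate 2. Itgb2-204 was thus higher in replicate 1 and Itgb2-201 in replicate 2, in each case without overlap of these within-library intervals. Itgb2-204 lacks an exon of 245 bases that Itgb2-201 holds, and the exon is shown as the internal sequence by which they differ, beside differences at both ends (GENCODE M21 on GRCm38, chr10:77559479-77559723, plus strand).
Itgb2 exon: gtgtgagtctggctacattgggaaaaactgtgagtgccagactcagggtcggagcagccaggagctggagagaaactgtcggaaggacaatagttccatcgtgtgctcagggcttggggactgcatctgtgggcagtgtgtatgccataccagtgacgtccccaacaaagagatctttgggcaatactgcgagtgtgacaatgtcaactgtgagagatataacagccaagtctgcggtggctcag
Counts of reads across the splice junctions that would show its use directly were not analysed here, so these shares rest on the authors' estimate.

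Itga6 and Itgb1 have alternative exons near the end of the coding sequence that change the cytoplasmic tail. Itga6-201 holds an exon of 130 bases, of which the coding 105 are shown (chr2:71853534-71853638, plus strand), and had 25.7% of Itga6 TPM in replicate 1 and 26.5% in replicate 2. Itga6-202, a further long protein-coding transcript, had no reads in either library. The leading Itga6-203, a processed transcript of 3 exons at the end of the gene that lacks the 130 bases, held 58.9% and 59.7%, and Itga6-207 held 13.7% and 9.14%. For Itgb1, Itgb1-201 held 98.1% of TPM in replicate 1 and 98.7% in replicate 2. Itgb1-204, which contains an extra exon of 81 bases, of which the coding 72 are shown (chr8:128726983-128727054, plus strand), had no reads in either. A tail exon at this place is known from the striated muscle form β1D.
Itga6 exon: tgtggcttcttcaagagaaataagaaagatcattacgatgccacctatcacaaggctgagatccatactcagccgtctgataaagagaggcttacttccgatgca
Itgb1 exon: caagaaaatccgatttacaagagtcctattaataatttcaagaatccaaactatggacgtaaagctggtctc
Both sequences are from GENCODE M21 on GRCm38.

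In Tln1, Itgav and Ilk, short transcripts carried much of the TPM from few reads. Tln1-201, the full-length transcript of 8393 bases, held 91.7% of the reads in replicate 1 and 94.7% in replicate 2, but 47.9% and 61.6% of the TPM. Tln1-206, of 836 bases, held 47.2% and 34.0% of the TPM from 7.63% and 4.43% of the reads. Itgav-205, of 463 bases, led Itgav with 43.3% and 44.1% of the TPM from 4.45% and 4.32% of the reads. The long Itgav-202 and Itgav-201 held 20.1% and 20.0% of the TPM in replicate 1, and 34.3% and 10.9% in replicate 2. Ilk-212 held 58.6% and 56.3% of Ilk TPM, the 504-base transcript ENSMUST00000138150 17.5% and 31.1%, and Ilk-203, annotated for nonsense-mediated decay, 21.7% and 11.3%. With reads divided by the length of the longest annotated transcript, Tln1 had a mean of 31.5 TPM, Ilk 36.2 TPM and Itgav 5.24 TPM. Of the genes above 10 TPM, these 3 came farthest below their deposited value on that scale, and 13 genes of the set stood at 10 TPM or more on it. Tln1 and Ilk lay below Rap1a, Lims1 and Parvg on it.

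**Figure D3:**
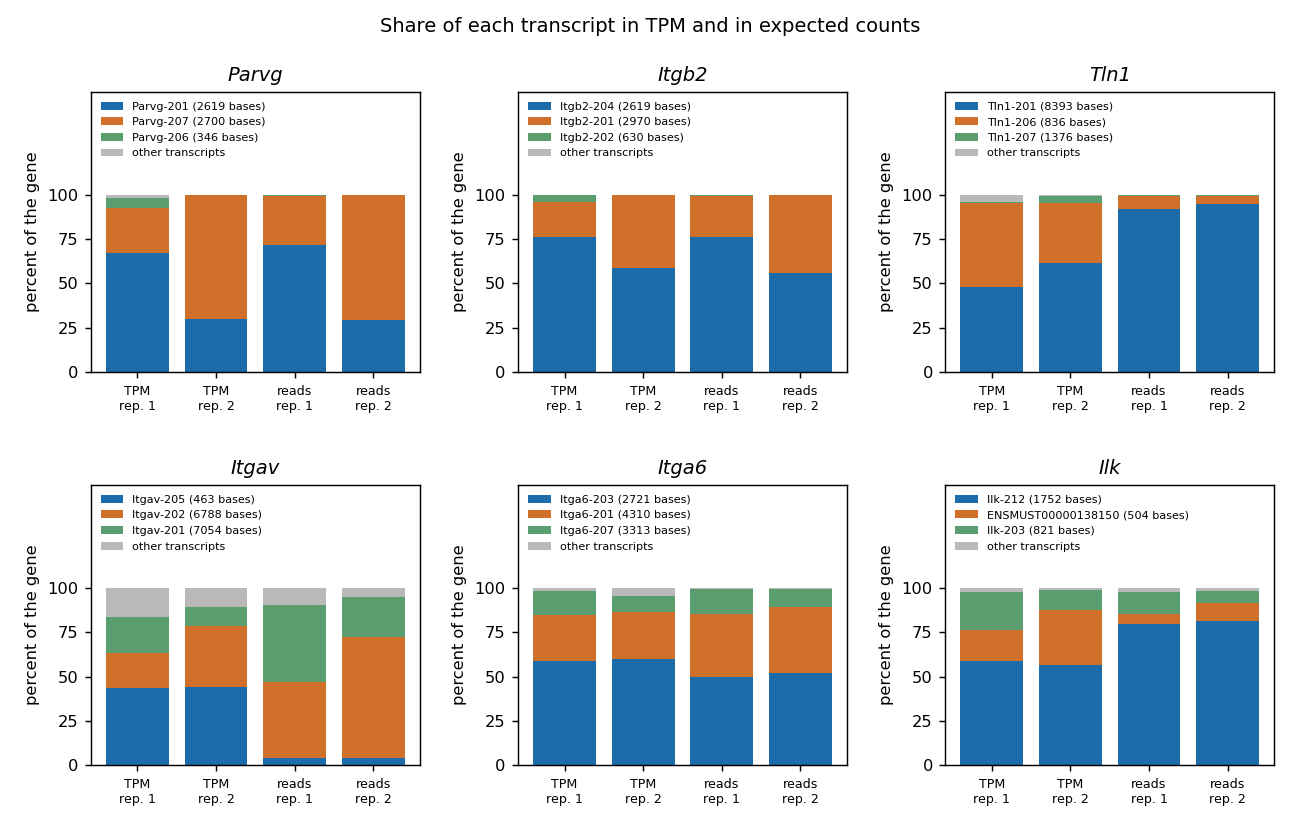
Percent of the gene held by each of its 3 leading transcripts and the remainder, as stacked bars, for 6 genes; the left pair of bars in each panel is the share of TPM and the right pair the share of expected counts, replicate 1 before replicate 2. Parvg exchanges its leading transcript between the libraries, and in Tln1 and Itgav short transcripts hold far more of the TPM than of the reads.

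The libraries were then compared gene by gene, as replicate 1 over replicate 2. Of 34 genes of the set with 10 or more reads in a library, 4 differed by 2-fold or more in TPM (pseudocount 0.1), beside 14.0% of 16507 genes. There is 1 library on each side and hence no test. Itga2 was higher in replicate 1 (0.17 TPM, against 0.03 TPM in replicate 2; log2 ratio 1.05), where 9.06% of all genes were past 2-fold in that direction. Itga3, Itgb5 and Tln2 were higher in replicate 2, beside 4.98% of all genes. None of the 15 genes at 10 TPM or more passed 2-fold, beside 0.9% of 5780 genes at that level, and the widest of them was Itgav at a log2 ratio of 0.38. Of these 15, 6 were higher in replicate 1 and 9 in replicate 2 by TPM. By reads, scaled to each library's sum of length-corrected reads, the counts were 4 and 11. The direction of such small differences thus depends on the scale. Under 1 TPM, 3 of 12 passed, beside 36.4% of all genes at that level.

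The 4 genes past 2-fold were all low. Their read ratios are scaled to each library's sum of length-corrected reads, and so differ from plain ratios of the reads printed. Itga2, the α2 collagen receptor chain, had 44 reads in replicate 1 and 8 in replicate 2, a log2 read ratio of 2.35 (95% interval 1.25 to 3.65, counting error only). Itga3, the α3 laminin receptor chain, had 0 reads in replicate 1 and 18 in replicate 2, and the interval of its log2 read ratio ends at -2.24. Tln2 had 52 and 117 reads (log2 read ratio -1.28, interval -1.78 to -0.80). For Itgb5 the read ratio was smaller than the TPM ratio, with 167 reads in replicate 1 and 255 in replicate 2 (log2 -0.72, interval -1.01 to -0.43, against a log2 TPM ratio of -1.12). All 167 reads of replicate 1 were assigned to Itgb5-201, whereas in replicate 2 that transcript had none, Itgb5-202 had 247 and the 364-base Itgb5-205 had 8.91, which made up 31.8% of the gene's TPM. The split in replicate 1 is uncertain, as by posterior means Itgb5-201 held 49.9% and Itgb5-202 24.1% there. The deposited intervals of Itgb5-201 overlapped between the libraries (0.0484 to 0.962 TPM in replicate 1, up to 0.257 TPM in replicate 2). Those of Itgb5-202 did not (up to 0.781 TPM in replicate 1, from 1.09 TPM in replicate 2). With reads divided by the longest transcript, Itga2 alone of the 4 stayed past 2-fold. With a pseudocount of 1 none did. For Itga2, Itga3 and Tln2 that outcome was fixed beforehand, as each lay under 1 TPM in both libraries.

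**Figure D4:**
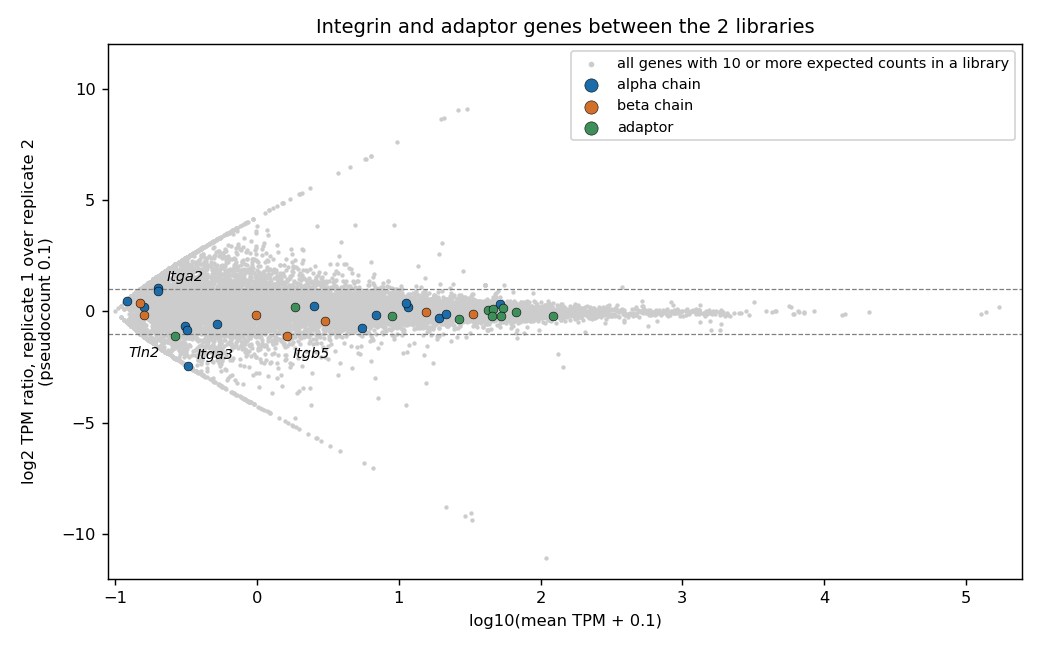
Log2 TPM ratio, replicate 1 over replicate 2 (pseudocount 0.1, y axis), against log10 of mean TPM plus 0.1 (x axis) for 16507 genes with 10 or more expected counts in a library (grey) and the 34 genes of the set among them (coloured by class); dashed lines mark 2-fold. The 4 named genes past 2-fold lie at the left, and all genes of the set at 10 TPM or more lie within 0.38 of 0.

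Other genes of integrin activation and signalling were read from 7 lists with 81 genes, chosen with earlier results of these data known. Of these, 54 (66.7%) reached 1 TPM in both libraries, beside the 46.2% of protein-coding genes. Of the exchange factors that load Rap1 with GTP, 5 of 8 did. The highest was Rasgrp2, the calcium-dependent factor CalDAG-GEFI of platelets and neutrophils, with 91.7 TPM in replicate 1 and 101 TPM in replicate 2. Its TPM came from 4364 and 4580 reads, and its level by the longest transcript was not examined. Rapgef6 followed with 25.1 and 22.1 TPM and Rapgef1 with 8.94 and 8.05 TPM. Of the GTPase-activating proteins that switch Rap1 off, 4 of 7 did, led by Sipa1l3 at 11.6 and 14.2 TPM, Rasa3 at 9.45 and 13.1 TPM and Sipa1l1 at 7.99 and 6.91 TPM. All 5 listed inhibitors of integrin activation did. Flna, filamin A, which competes with talin for beta tails, had 64.7 TPM in replicate 1 and 81.0 TPM in replicate 2. Nisch (nischarin) had 46.4 and 39.0 TPM, and Sharpin had 43.1 and 34.9 TPM.

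Of 10 partners of Rap1, talin and the integrins, 6 reached 1 TPM in both. They were led by Cd47, the integrin-associated protein, with 213 TPM in replicate 1 and 236 TPM in replicate 2, Rsu1, a binding partner of PINCH1, with 55.3 and 44.7 TPM, and Cib1, which binds the αIIb tail, with 26.9 and 27.6 TPM. Radil, Lims2 and Kank1 were at 0 in both. Of the signalling list, 17 of 21 reached 1 TPM. The highest were the scaffold Git2 (34.0 and 33.3 TPM in replicates 1 and 2), the Rac exchange factor Dock2 (34.3 and 32.3 TPM) and the Src-family kinase Lyn (25.3 and 28.0 TPM). All 9 genes of the actin linkage list did, led by Actn4 (35.7 and 35.8 TPM), Zyx (31.3 and 35.1 TPM) and Iqgap1 (28.4 and 28.8 TPM). Between near relatives, the focal adhesion kinase gene Ptk2 had 0.37 and 0.40 TPM while Ptk2b (PYK2) had 20.9 and 20.1 TPM, a pair named after its values were seen.

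Of 21 ligands of integrins, 8 reached 1 TPM in both and the median was 0.32 TPM. The highest were Icam2, a counter-receptor of αLβ2 (24.8 TPM in replicate 1 and 24.9 TPM in replicate 2), Vcam1, the counter-receptor of α4β1 (10.7 and 16.2 TPM), and the matrix protein gene Fn1 (4.72 and 5.69 TPM). Vtn, Fga, Fgb, Fgg, Madcam1, Lama4 and Col1a1 were at 0 in both.

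**Figure D5:**
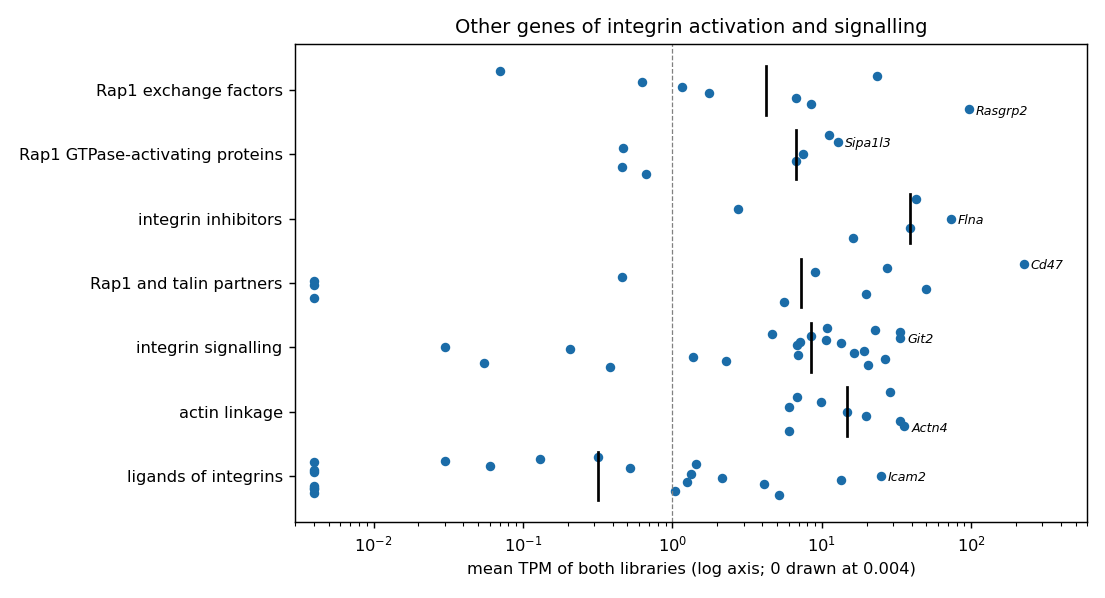
Mean TPM over the libraries of the 81 other genes in 7 lists, 1 row per list, on a log axis with 0 drawn at 0.004; each point is a gene, the black bar is the list's median, the dashed line marks 1 TPM and the highest gene of each list is named. All inhibitors and actin linkage genes lie above 1 TPM, and 7 of 21 ligand genes lie at 0.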

How the data were processed

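Total RNA-seq of 2 libraries was read from the deposited gene and transcript tables. Reads were aligned to mm10 and quantified with GENCODE M4, each library alone, per the submitters' file list. The columns are named as RSEM writes them. The aligner, the versions and the use of strand were not given in the sources used here. Expected counts were deposited as estimates of reads, a read that fits several features being divided, with no normalization. The deposited TPM and FPKM values were scaled by the authors over all rows, so abundant ribosomal and mitochondrial RNA lowers every other TPM. The deposited score columns are the bounds of the authors' credibility interval, whose level is not stated, and the deposited percent values are each transcript's share of its gene's TPM. The depths, 82746658 and 75652762 expected counts, limit precision to the intervals printed. Those of read ratios are exact 95% intervals that cover counting error only, as PCR copies are not independent. Read ratios were scaled to each library's sum of length-corrected reads. The intervals and upper bounds printed in TPM are the authors' credibility bounds.

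Symbols and positions came from GENCODE M21 on GRCm38 (98.0% of 43346 Ensembl genes matched) and upstream sequences from RefSeq on GRCm38.p6. Levels, shares and ratios were computed with Python 3.11.15, pandas 2.3.3 and scipy 1.17.1. The 2-fold rule was tested on simulated counts, and the interval step was not. With 1 group no test between conditions exists: genes are described by counts, medians and a 2-fold rule (log2 of TPM with pseudocount 0.1, genes with 10 or more rounded expected counts in a library). Expected counts were rounded for this filter and for the scaling factors of edgeR 4.0.16 and DESeq2 1.42.0. Alternatives covered thresholds, pseudocount, filter, scaling, posterior means, FPKM and each library left out. Division by the longest annotated transcript was chosen after seeing the data. TPM is given for genes at 10 TPM or more, the 6 highest alpha and 4 highest beta chains, Itga2b and Itgb3, and the 3 highest genes of each list or any at 50 TPM or more. Transcripts are given for genes whose leading one held under 60% or differed by 10 points. Others named were chosen after their values were seen. The genes and lists were chosen with earlier results of these data known.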

Additional observations from a re-analysis of the deposited data

How the results depend on the processing

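The count of genes at 1 TPM or more in both libraries (21) ranged from 20 to 23, that of pairings (8) from 8 to 11 and that of the other integrin genes (54) from 48 to 58 over their alternatives. The median of the set (2.08 TPM) became 2.38 by posterior means, 4.57 after rescaling without mitochondrial, small RNA and spike-in rows and Gm42418, 1.57 as FPKM, 6.10 over genes with 10 or more reads, 1.48 by the longest transcript, and 2.15 to 2.19 with either library left out. The 4 genes past 2-fold became 0 with pseudocount 1, 8 with pseudocount 0.01 and 2 with a filter at 50 reads (Itga2 and Itga3 fall under it). With no filter they stayed 4. They became 9 with TMM and 9 with DESeq2 scaling (3 of the 4 among each 9). After the same rescaling as for the median they became 6 (the 4 with Itgae and Itgax), by posterior means 2 and by the longest transcript 1. These counts rest on genes under about 2 TPM, where depth limits the ratio. A pseudocount of 1 lets no gene under 1 TPM in both libraries pass 2-fold. By expected counts the share of Itga4 became 60.6%, Itgb1 68.6%, Parvg 94.2% and Rap1b 69.2%. By posterior means Itgb1 became 60.5%, Fermt3 99.0%, Parvg 95.2% and Ilk-212 55.1%. By the longest transcript the share of Itgb1 became 63.6%, and the ratio of alpha partners became 2.40 for Itgb1 and 1.97 for Itgb2. Where no construction of the alternative shows the cause, the cause was not tested. None of the 4 ratios past 2-fold changed sign. With TMM or DESeq2 scaling, as by the longest transcript, 6 of the 34 ratios did (Itga9, Itga10, Itgam, Tln1, Ilk and Parvg). Itga9 (log2 -0.66) was past 2-fold the other way with either scaling (1.21), but not by the longest transcript (0.53). By posterior means, and by rescaled TPM, Ilk alone changed sign. Of the other values tried under alternatives, 86 kept their call or moved by less than the spread between libraries, while 57 moved further and 11 ended a 2-fold call. With either library left out, Parvg-201 ranged from 29.8% to 67.3%. No paired analysis was possible because there is only 1 group.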
